A study of Homo sapiens with 39 samples.

Results

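The genes described here are 58 genes of G2, mitosis and cytokinesis, taken by name from a list and grouped by role, out of 63187 genes in a table of RNA-seq counts. They comprise 9 kinases, cyclins and phosphatases of mitotic entry, 11 genes of the spindle checkpoint, the anaphase-promoting complex (APC/C) and cohesion, and 4 genes of the chromosomal passenger complex. A further 7 act at the centromere and kinetochore, 11 are spindle kinesins and assembly factors, 9 act in cytokinesis, 5 in chromosome structure, and 2 are transcription factors. All 58 were found in the table by gene ID and passed the filter on low counts in both experiments, so no member was lost. RNA was measured in C4-2B, a castration-resistant human prostate cancer cell line, in 39 libraries from 2 experiments. In the time course, cells received DMSO (vehicle), 1 µM olaparib or 5 µM olaparib, a PARP inhibitor (PARPi), for 1 or 5 days, which makes 6 groups. In the panel, all 7 groups were treated for 5 days, with DMSO, the hormone pathway drugs abiraterone acetate (5 µM, called abiraterone here) or enzalutamide (20 µM), the PARPi olaparib (1 µM) or talazoparib (10 nM), or a pair of drugs at these doses. The pairs were abiraterone with olaparib and enzalutamide with talazoparib. Each group had 3 libraries from this single cell line. The labels do not say whether replicates were separate cultures, and p-values then measure only the spread between these samples.

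As background, entry into mitosis depends on CDK1 bound to cyclin B, which Polo-like and Aurora kinases help to switch on. Microtubules attach to chromosomes at the kinetochore, a protein assembly built on centromeric chromatin that contains the histone variant CENP-A. The spindle checkpoint holds back CDC20 and the APC/C until all chromosomes are attached, after which cyclin B and securin are degraded, separase opens cohesin, and the central spindle guides cytokinesis. Transcripts of most of these genes are low in G1 and peak in G2 and mitosis, while MYBL2 is an E2F target that is induced earlier, at entry into S phase. In quiescent or arrested cells the DREAM complex, with its MuvB core, represses them through a promoter element called the cell cycle genes homology region (CHR), and in cycling cells MuvB with B-MYB (encoded by MYBL2) and FOXM1 activates them. CCAAT boxes bound by NF-Y are frequent in the same promoters. The p53 target p21, encoded by CDKN1A, inhibits cyclin-dependent kinases and acts upstream of DREAM.

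Promoter windows of 300 bases, 250 before and 50 after the transcription start, were taken from RefSeq on GRCh38.p14 and were given for 49 of the 58 genes. AURKA, BUB3, TTK, UBE2C, BIRC5, TPX2, RACGAP1, CDCA2 and FOXM1 had none. Both strands were searched. The CHR was taken as TTTGAA, which reads as TTCAAA on the opposite strand. Its variant TTCGAA, which reads the same on both strands, was counted as well. The CCAAT box was searched as CCAAT, which reads as ATTGG on the opposite strand. The 2 motifs were counted independently and may share bases where they adjoin. At least 1 window held a CHR match for 38 of the 49 genes (77.6%), against 19.5% of all 27305 genes in the table, and a CCAAT match for 40 (81.6%), against 39.7%. Matches to both occurred in 31 genes (63.3%), against 7.85% of all genes. The windows of PLK1 and CDC20 are shown because these genes fell among the most on day 1 at 5 µM olaparib, that of PRC1 because it fell by an intermediate amount, and that of CDK1 because it hardly moved. Capitals mark the matches on either strand, and each window runs 5′ to 3′ on the strand of its gene.
PLK1 (chr16:23678639-23678938, plus strand): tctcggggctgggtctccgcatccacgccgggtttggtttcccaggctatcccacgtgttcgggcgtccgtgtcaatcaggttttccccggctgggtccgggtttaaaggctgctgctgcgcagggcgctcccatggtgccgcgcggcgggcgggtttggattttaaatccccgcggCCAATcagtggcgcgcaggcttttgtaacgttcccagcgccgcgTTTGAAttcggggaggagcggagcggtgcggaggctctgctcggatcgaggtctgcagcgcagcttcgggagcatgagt
CDC20 (chr1:43358731-43359030, plus strand): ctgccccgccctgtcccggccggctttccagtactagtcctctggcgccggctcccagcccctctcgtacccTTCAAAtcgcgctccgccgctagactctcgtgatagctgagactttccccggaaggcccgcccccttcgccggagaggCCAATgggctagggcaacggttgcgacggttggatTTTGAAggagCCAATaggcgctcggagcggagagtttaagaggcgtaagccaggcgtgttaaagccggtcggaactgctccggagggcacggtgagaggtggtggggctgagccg
PRC1 (chr15:90994486-90994785, minus strand): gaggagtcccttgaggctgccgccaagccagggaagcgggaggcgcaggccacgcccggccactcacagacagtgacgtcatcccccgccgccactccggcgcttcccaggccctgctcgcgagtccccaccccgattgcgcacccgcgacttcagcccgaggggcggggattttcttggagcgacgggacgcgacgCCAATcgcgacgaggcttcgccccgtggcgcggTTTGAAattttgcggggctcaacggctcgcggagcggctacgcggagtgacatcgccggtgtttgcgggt
CDK1 (chr10:60778228-60778527, plus strand): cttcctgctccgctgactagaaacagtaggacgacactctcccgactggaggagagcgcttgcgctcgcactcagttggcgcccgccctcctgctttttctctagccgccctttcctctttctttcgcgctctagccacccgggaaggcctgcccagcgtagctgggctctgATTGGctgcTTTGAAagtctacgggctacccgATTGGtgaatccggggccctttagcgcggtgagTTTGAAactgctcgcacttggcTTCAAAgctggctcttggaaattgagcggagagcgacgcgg

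The CHR match of PLK1 began 29 bases before the start site, with its CCAAT match 73 bases before it, and that of PRC1 began 20 bases before the start site, with CCAAT at 53. The CDC20 window held CHR matches at 178 and 65 bases before the start and CCAAT matches at 100 and 55. CDK1 has 2 windows in the table, and the one shown held CHR matches at 69 and 13 bases before and 9 bases after the start, with CCAAT matches at 78 and 46. These matches describe letters in a window and were not tested as binding sites.

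Total counts per library lay between 26932205 and 49833473 (median 37223200), and the lowest count of any of the 58 genes in any library was 55. Levels are given as CPM, counts scaled to library size with TMM factors within each experiment, so levels are comparable within an experiment and not across the 2. Over the 754 combinations of a gene and a group, the coefficient of variation among the 3 replicates had a median of 3.13% and reached 16.4% at most. Replicates of a group differed by more than read sampling, with a chi-square per degree of freedom of 2.18 to 6.03 over the 39 pairs. The highest value was between replicates A and C of panel DMSO. Replicates A and C of talazoparib (5.54) and of enzalutamide plus talazoparib (5.39) were also far apart. Replicate 3 of 5 µM olaparib on day 1 stood apart from replicates 1 and 2 (5.99 and 5.87, against 2.28 between those), and without it 55 of the 58 genes were called lower than in DMSO of that day, with a median log2 fold change of −0.74. The prostate markers KLK3, KLK2, FOLH1, HOXB13, TMPRSS2, KRT8 and KRT18 were detected in all 39 libraries, while 6 markers of other cell types summed to between 10.8 and 23.2 CPM per library. Almost all of that sum was COL1A1, a collagen gene.

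In DMSO on day 1, levels per kilobase of the canonical transcript ran from 6.55 CPM per kb for KIF15, a spindle kinesin, to 224 CPM per kb for CDK1. PLK1 (chr16:23677656-23690367, 10 exons) stood at 57.8 ± 1.65 CPM per kb (SD, n = 3), CDC20 (chr1:43358981-43363203, 11 exons) at 89.5 ± 0.37, and CENPE (chr4:103105349-103198445, 49 exons) at 15.6 ± 0.56. TOP2A (chr17:40388525-40417896, 35 exons) stood at 46.2 ± 1.62 CPM per kb and MYBL2 (chr20:43667019-43716495, 14 exons) at 74.7 ± 0.70. Coordinates are those of GRCh38 in GENCODE v44. KIF4A and PTTG1 have near-identical copies elsewhere in the genome (KIF4B, PTTG2), so their counts are uncertain, and copies of the other members were not checked.

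The early response to 5 µM olaparib was a fall of nearly every gene, and its size differed widely between genes. After 1 day, 56 of the 58 genes were lower than in DMSO and 1 was higher at an adjusted p under 0.05 (edgeR's quasi-likelihood test, Benjamini-Hochberg adjustment over all 18502 genes tested), against 23.4% of all genes lower and 21.6% higher. The median log2 fold change of the 58 was −0.73, and that of all genes tested was 0.02. In 56 genes all 3 treated libraries lay below all 3 DMSO libraries, a pattern found in 26% of all genes tested. The summed CPM of the 58 genes fell from 6776 ± 122 (SD, n = 3) in DMSO to 4217 ± 37.4. In bulk RNA, fewer cells in G2 or mitosis and less RNA of these genes per cell cannot be told apart.

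PLK1, AURKA and CDC20 fell most on day 1. PLK1, the kinase of centrosome maturation and mitotic entry, was at 125, 121 and 129 CPM in DMSO and at 32.1, 33.1 and 33.5 CPM at 5 µM. These groups were far apart, with a log2 fold change of −1.93 ± 0.03 (SE), or 3.80-fold lower (edgeR adjusted p = 3.08e-34). CDC20, the activator of the APC/C, was at 147, 148 and 148 CPM in DMSO and at 50.6, 47.9 and 47.8 CPM at 5 µM. Its log2 fold change was −1.60 ± 0.03. KIF20A, a kinesin of the central spindle, was at 116, 114 and 118 CPM in DMSO and at 42.2, 40.6 and 41.3 CPM at 5 µM, a log2 fold change of −1.49 ± 0.03. A log2 fold change of −1 or less was reached by 10 genes, namely these 3, the spindle kinase AURKA (−1.61), cyclin B1 (CCNB1, −1.39), the kinesin KIF18A (−1.26), the kinetochore motor CENPE (−1.24), the centromeric histone CENPA (−1.24), the spindle protein HMMR (−1.21) and the spindle pole protein ASPM (−1.12). This group of 10 was chosen after its values were seen.

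**Figure D1:**
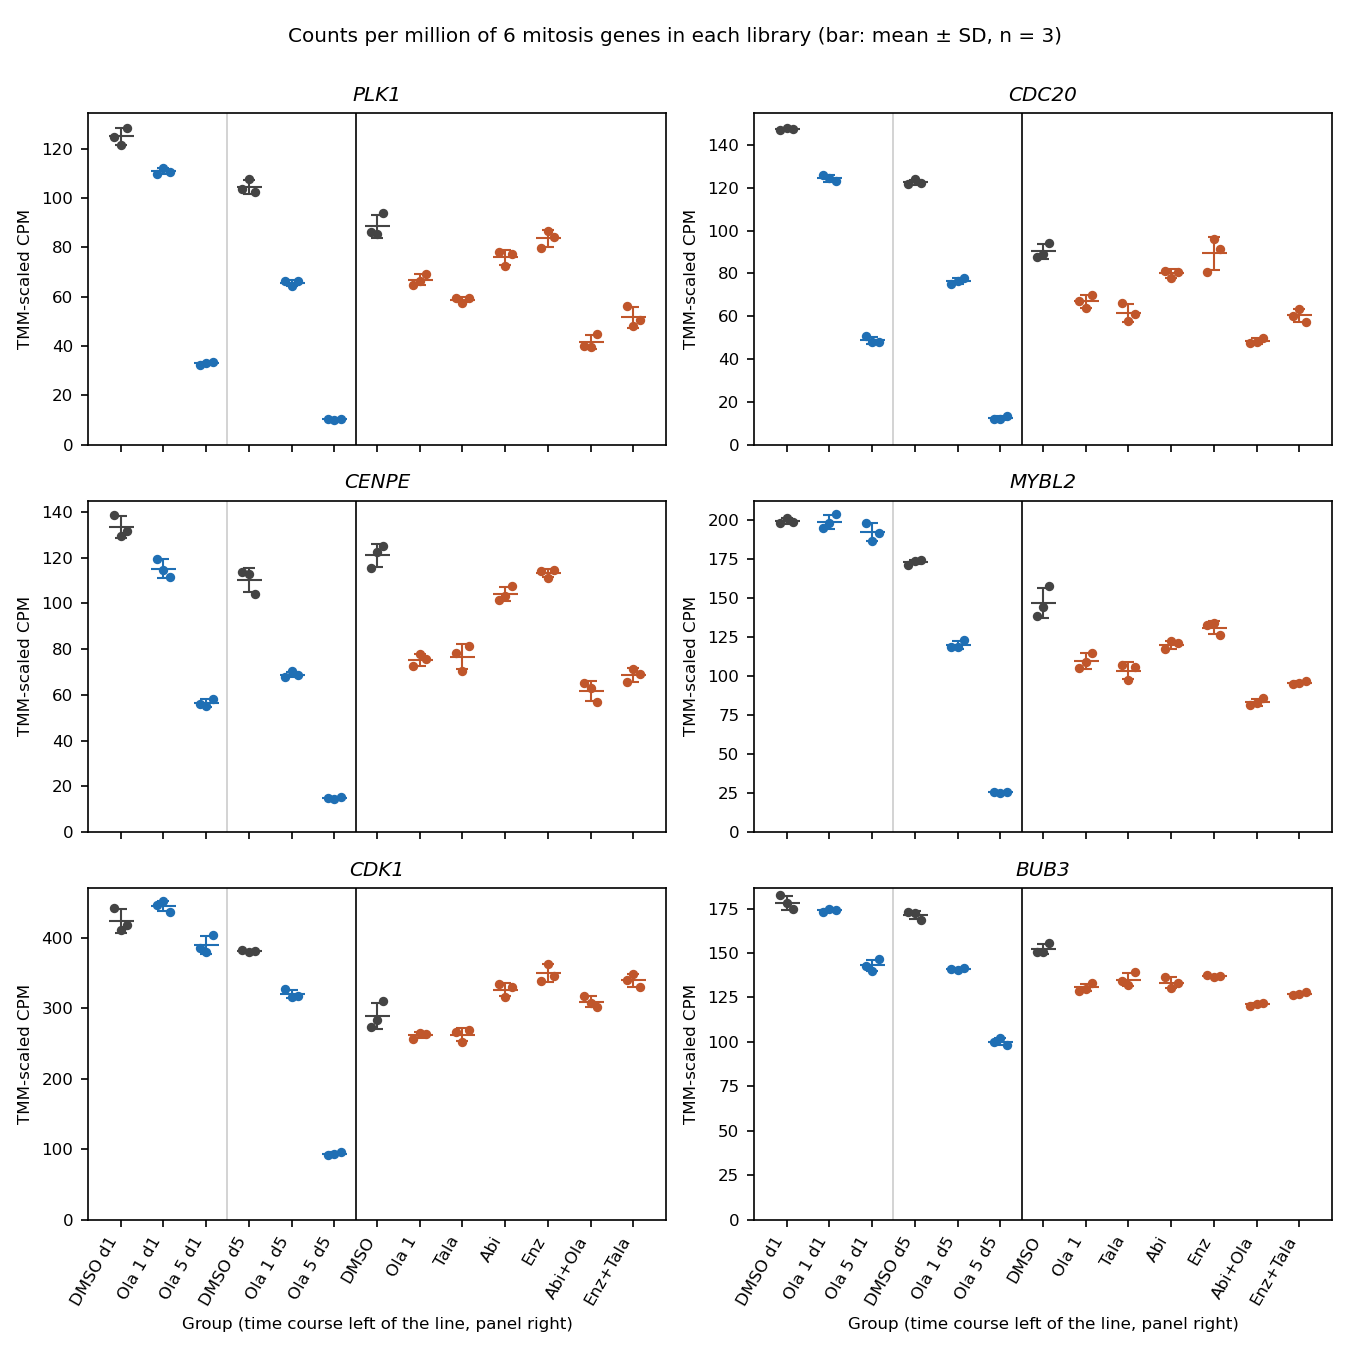
TMM-scaled CPM (vertical axis, from 0) of PLK1, CDC20, CENPE, MYBL2, CDK1 and BUB3 in each of the 39 libraries by group (horizontal axis; d1 and d5 are days, Ola 1 and Ola 5 are µM), with points for libraries and bars for the mean ± SD of 3. On day 1 at 5 µM olaparib, PLK1 sat between 32.1 and 33.5 CPM, whereas MYBL2 sat between 186 and 198 CPM and overlapped DMSO.

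Among the 9 mitotic entry genes, all 9 fell on day 1 at 5 µM with a median log2 fold change of −0.79, but they spread from PLK1 (−1.93) to CDK1 (−0.12). CDK1, the kinase that drives entry into mitosis, was at 443, 411 and 418 CPM in DMSO and at 385, 380 and 404 CPM at 5 µM. All treated values were below all DMSO values, yet the mean was only 8.03% lower (edgeR adjusted p = 8.99e-05). Its partner cyclin B1 was at 263, 261 and 257 CPM in DMSO and at 100, 99.4 and 99.0 CPM at 5 µM. CDC25C, a phosphatase that activates CDK1, changed little (−0.21), and its relative CDC25B by −0.53. Cyclins A2 (−0.82) and B2 (−0.71) lay near the middle of the group.

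All 11 checkpoint, APC/C and cohesion genes fell on day 1 at 5 µM (median −0.76). After CDC20, the falls were largest for the checkpoint kinase BUB1 (−0.98 ± 0.03) and for SGO2 (−0.93 ± 0.04), a protector of centromeric cohesin. BUB3, which carries BUB1 to kinetochores, fell the least of this group. Its levels were 182, 178 and 175 CPM in DMSO and 142, 140 and 146 CPM at 5 µM, without overlap and with a log2 fold change of −0.32 ± 0.02. Securin (PTTG1, −0.87) fell by more than separase (ESPL1, −0.44) in these estimates, and the difference between the 2 was not tested. The 4 genes of the passenger complex, which corrects faulty attachments, lay between −0.92 for borealin (CDCA8) and −0.55 for AURKB. AURKB, the kinase of the complex, was at 40.3, 41.4 and 41.8 CPM in DMSO and at 27.3, 28.5 and 28.6 CPM at 5 µM.

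At the centromere and kinetochore, 6 of 7 genes fell and 1 rose on day 1 at 5 µM, with a median of −0.86. CENPE, a kinesin that moves chromosomes to the spindle equator, was at 139, 130 and 132 CPM in DMSO and at 56.1, 55.1 and 58.4 CPM at 5 µM, a log2 fold change of −1.24 ± 0.03. CENPF, a large outer kinetochore protein, fell by 0.92 on the log2 scale. The 4 subunits of the NDC80 complex, which binds microtubules as a fixed assembly, did not move together. NDC80 itself fell by 0.86 and NUF2 by 0.40, while SPC25 changed by −0.15 ± 0.06 (edgeR adjusted p = 0.0314; 0.143 with scaling by total counts, 0.262 without DMSO replicate 1 and 0.125 without 5 µM replicate 3). SPC24 was the only one of the 58 genes called higher, at 40.2, 41.0 and 39.3 CPM in DMSO and 42.9, 41.6 and 47.2 CPM at 5 µM. Its log2 fold change of 0.13 ± 0.04 had an edgeR adjusted p of 0.014, and without DMSO replicate 3 or 5 µM replicate 3 the adjusted p was 0.0658 or 0.19.

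All 11 spindle kinesins and assembly factors fell on day 1 at 5 µM (median −0.68), from KIF18A (−1.26 ± 0.05), which shortens the movements of chromosomes at the metaphase plate, to NUSAP1 (−0.29 ± 0.03), a microtubule bundling protein. TPX2, which activates Aurora A on the spindle, was at 258, 246 and 246 CPM in DMSO and at 141, 141 and 143 CPM at 5 µM. Its log2 fold change was −0.82 ± 0.02. The 9 cytokinesis genes all fell (median −0.72), from KIF20A to KIF20B (−0.31). PRC1, which crosslinks microtubules of the central spindle, was at 169, 165 and 167 CPM in DMSO and at 105, 104 and 108 CPM at 5 µM (log2 fold change −0.66 ± 0.03).

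Each of the 5 genes of chromosome structure fell on day 1 at 5 µM (median −0.78). TOP2A, the topoisomerase that untangles sister chromatids, was at 274, 257 and 258 CPM in DMSO and at 178, 179 and 180 CPM at 5 µM, a log2 fold change of −0.55 ± 0.03. The proliferation marker MKI67 fell by 0.86, and the condensin subunits NCAPG and NCAPH by 0.78 and 0.50. The 2 transcription factors changed least of the 8 roles (median −0.13), with 1 of them lower. FOXM1, an activator of G2 and M genes, was at 287, 286 and 287 CPM in DMSO and at 253, 244 and 246 CPM at 5 µM, a change of −0.21 ± 0.03. MYBL2 was at 198, 201 and 199 CPM in DMSO and at 198, 186 and 192 CPM at 5 µM. Its groups overlapped and its change of −0.05 ± 0.03 did not pass the test (edgeR adjusted p = 0.0915; 0.0242 without 5 µM replicate 1 and 0.0428 with DESeq2).

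Across the 49 genes with a promoter window, the day 1 change at 5 µM had a median of −0.72 in the 38 genes with a CHR match and −0.82 in the 11 without. On day 5 at 5 µM these medians were −2.83 and −2.82, and with olaparib in the panel they were −0.50 and −0.45. Whether the changes differed by CHR match was not tested. CDK1, which changed by −0.12, and PLK1, which changed by −1.93, both hold CHR and CCAAT matches in the windows printed above.

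**Figure D2:**
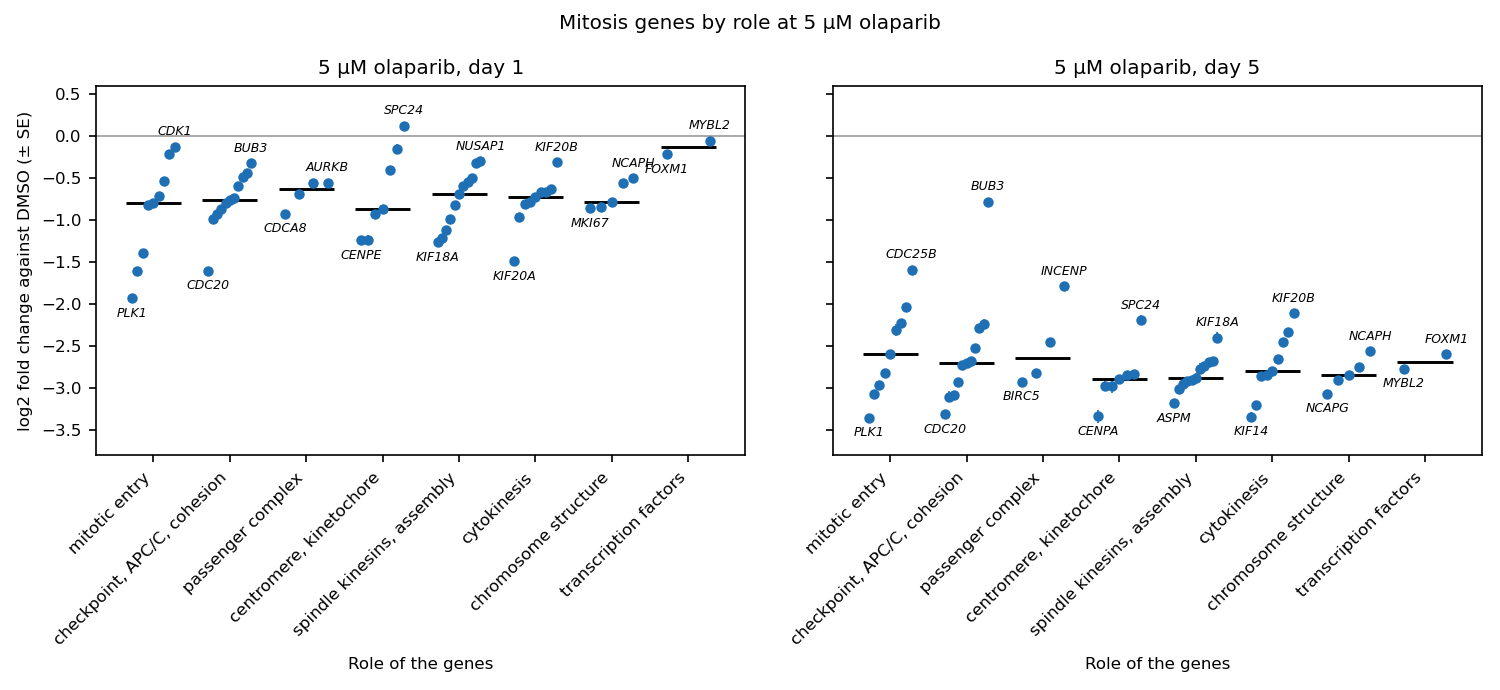
Log2 fold change against DMSO (vertical axis; points are genes with ± SE, lines are medians) at 5 µM olaparib on day 1 (left) and day 5 (right), by role of the genes (horizontal axis), with the lowest and highest gene of each role named. On day 1 the genes spread from −1.93 for PLK1 to 0.13 for SPC24, and on day 5 all 58 lay between −3.35 and −0.78.

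After 5 days at 5 µM, all 58 genes were lower than in DMSO of that day, against 33.9% of all genes lower and 34.4% higher. The median log2 fold change was −2.81, and the summed CPM fell from 5910 ± 64.6 to 1011 ± 24.1. PLK1 was at 104, 108 and 102 CPM in DMSO and at 10.4, 9.96 and 10.3 CPM at 5 µM, 10.2-fold lower (log2 fold change −3.35 ± 0.04, edgeR adjusted p = 8.98e-40). KIF14, a kinesin of the midbody, and CENPA followed (both −3.34), and CDC20 (−3.31) was at 122, 124 and 122 CPM in DMSO and between 11.8 and 13.3 CPM at 5 µM. The genes that had hardly moved on day 1 were low as well. MYBL2 was at 171, 173 and 174 CPM in DMSO and at 25.5, 24.9 and 25.9 CPM at 5 µM (−2.77 ± 0.03). CDK1 was at 382, 380 and 381 CPM in DMSO and at 91.8, 93.1 and 95.4 CPM at 5 µM (−2.03 ± 0.03). SPC24 changed by −2.19 and SPC25 by −2.97.

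The smallest changes on day 5 at 5 µM were those of BUB3, CDC25B and INCENP. BUB3 was at 173, 172 and 169 CPM in DMSO and at 100, 102 and 98.1 CPM at 5 µM, a log2 fold change of −0.78 ± 0.03. CDC25B changed by −1.59 and INCENP, the scaffold of the passenger complex, by −1.79. The medians of the 8 roles lay between −2.89 for the centromere and kinetochore and −2.59 for mitotic entry. Day 1 and day 5 ranked the genes differently, with Pearson's r of 0.415 and Spearman's rho of 0.405 across the 58 genes. These values describe genes measured in the same libraries, which are not independent replicates, although the 2 days shared no library.

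The difference between the days was itself past the threshold for each of the 58 genes at 5 µM (day by treatment term, median −2.05), all toward a lower value on day 5, against 27.7% of all genes lower and 27.2% higher. SPC25 (−2.82 ± 0.11) and MYBL2 (−2.71 ± 0.04) had the largest differences, followed by NUF2 (−2.57). The smallest were those of BUB3 (−0.46 ± 0.03), CCNB1 (−0.84 ± 0.04) and AURKA (−0.99 ± 0.06). Scaling by total counts moved the median of all genes in this contrast from −0.02 to −0.15 and that of the 58 genes to −2.18. The vehicle cells changed too. In DMSO, 52 of the 58 genes were lower on day 5 than on day 1 (median −0.20) and none was higher, against 13.4% of all genes lower and 11.1% higher. CENPF (−0.33), TPX2 (−0.30) and SGO1 (−0.29) differed most, and 6 genes, BUB3 (−0.06) and CDC25C (−0.02) among them, did not pass the test. BUB3 passed it with DESeq2 (adjusted p = 0.0284).

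The lower dose had little effect on day 1. At 1 µM, 24 genes were lower and 3 higher than in DMSO, against 9.52% of all genes lower and 6.3% higher, and the median log2 fold change was −0.08. With scaling by total counts the split was 15 lower and 4 higher, and 2667 of all genes were called there, 1069 of them lower. With single libraries left out, 15 to 23 genes were lower, with 15 without 1 µM replicate 3 and 16 without DMSO replicate 1. The largest falls were those of CDC20 (−0.24 ± 0.03, at 126, 125 and 123 CPM), CENPE (−0.21 ± 0.03) and PLK4 (−0.20 ± 0.04), the kinase of centriole duplication. PLK1 was at 110, 112 and 111 CPM, below all DMSO libraries. SPC24 (0.22 ± 0.04, at 46.0, 45.2 and 49.1 CPM), UBE2C (0.15 ± 0.03), an E2 enzyme of the APC/C, and CDK1 (0.07, edgeR adjusted p = 0.0403) were called higher. The call of CDK1 was lost with RLE scaling (adjusted p = 0.0527) and when DMSO replicate 2 or 3 or 1 µM replicate 1 or 2 was left out (0.109 to 0.228). TOP2A (0.07, adjusted p = 0.0858) did not pass the test, but did so without DMSO replicate 1 (0.0223), with scaling by total counts (0.0153), with DESeq2 (0.0247) and with only the groups compared (0.0274). MYBL2 did not pass the test.

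By day 5, all 58 genes were lower at 1 µM as well (median −0.58), against 22.9% of all genes lower and 23.4% higher. KIF14 (−0.85 ± 0.04), CENPA (−0.77 ± 0.06) and PLK4 (−0.73 ± 0.05) changed most, and CDK1 (−0.25), CDC25B (−0.28) and BUB3 (−0.28) least. PLK1 was at 66.2, 64.3 and 66.3 CPM, against 102 to 108 CPM in DMSO of day 5. MYBL2 was at 119, 119 and 123 CPM, also below every DMSO library. The day by treatment term at 1 µM was past the threshold for all 58 genes (median −0.52), each lower on day 5, against 14.2% of all genes lower and 15.6% higher. It ranged from −0.73 for SPC25 to −0.25 for BUB3.

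The doses also differed on each day. On day 1, 56 genes were lower at 5 µM than at 1 µM (median −0.63) and none was higher, against 15.9% of all genes lower and 12.8% higher, with PLK1 again at the low end (−1.75 ± 0.03). The exceptions were SPC24 (−0.09, edgeR adjusted p = 0.103; 0.00949 without 5 µM replicate 3) and MYBL2 (−0.05, adjusted p = 0.155; 0.0469 without 5 µM replicate 1). On day 5, all 58 genes were lower at 5 µM than at 1 µM (median −2.20), against 27% of all genes lower and 26.6% higher. PLK1 (−2.68) and BUB3 (−0.49) were the extremes.

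In the panel, 1 µM olaparib for 5 days lowered all 58 genes (median −0.48), against 16% of all genes lower and 19.6% higher. CENPF was at 246, 265 and 280 CPM in DMSO and at 167, 160 and 162 CPM with olaparib (−0.69 ± 0.05), CENPE changed by −0.69 and KIF14 by −0.67. CDK1 (−0.14), CDC25B (−0.19) and INCENP (−0.21) changed least. The call of INCENP was lost without DMSO replicate B or C or olaparib replicate B (edgeR adjusted p = 0.0524 to 0.121). Talazoparib at 10 nM also lowered all 58 (median −0.50), against 15.4% of all genes lower and 18.4% higher. KIF14 (−0.86 ± 0.05), MKI67 (−0.76 ± 0.09) and KIF15 (−0.72 ± 0.07) changed most under talazoparib, and CDK1 (−0.14; edgeR adjusted p = 0.0535 without DMSO replicate C), BUB3 (−0.17) and HMMR (−0.25) least. PLK1 was at 86.2, 85.4 and 93.7 CPM in DMSO, at 64.8, 66.4 and 69.1 CPM with olaparib and at 59.2, 57.5 and 59.4 CPM with talazoparib. These comparisons share the DMSO libraries, and the 2 drugs were given at different doses, so they are set side by side only.

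The 1 µM response at 5 days was measured in both experiments with no library in common. Across the 58 genes, the log2 fold changes of the time course and the panel had a Pearson's r of 0.795 and a Spearman's rho of 0.738, with a median absolute difference of 0.09. CDK1, CDC25B and BUB3 were among the smallest changes in both, at −0.25, −0.28 and −0.28 in the time course and −0.14, −0.19 and −0.22 in the panel. KIF14 was at −0.85 and −0.67.

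**Figure D3:**
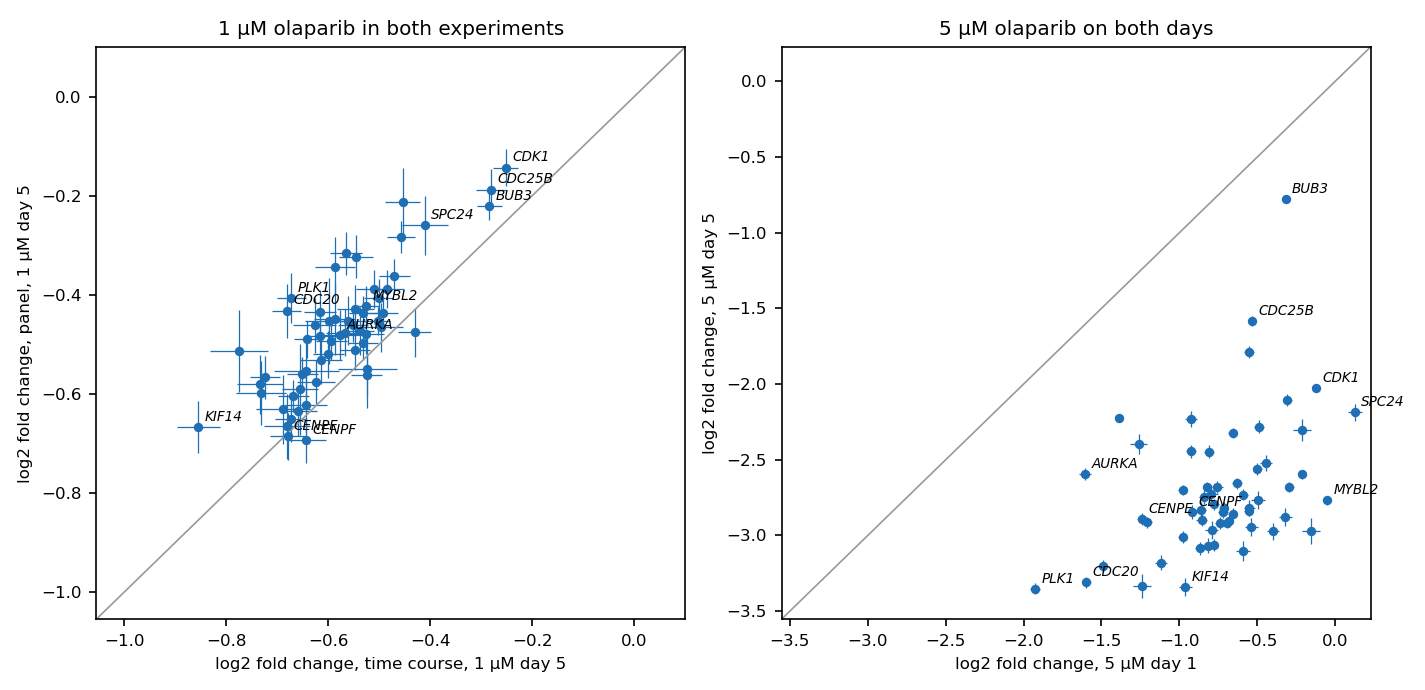
Each point is 1 of 58 genes with ± SE, plotted as log2 fold change against DMSO. On the left, 1 µM olaparib for 5 days in the time course (horizontal) and the panel (vertical) lie near the diagonal. The median fall there was smaller in the panel (−0.48) than in the time course (−0.58). On the right, 5 µM on day 1 (horizontal) and day 5 (vertical) lie below the diagonal for all 58 genes, with BUB3 closest to it.

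Abiraterone and enzalutamide moved the genes less, and not all one way. With abiraterone, 34 genes were lower and 2 higher than in DMSO (median −0.16), against 27.1% of all genes lower and 25.8% higher. With scaling by total counts 21 were lower and 4 higher, and 9768 of all genes were called there, 3905 of them lower. KIF18A (−0.39 ± 0.07), the chromokinesin KIF4A (−0.38 ± 0.04) and PTTG1 (−0.36 ± 0.04) fell most. CDK1 was at 274, 283 and 310 CPM in DMSO and at 334, 315 and 330 CPM with abiraterone, without overlap (0.18 ± 0.04, edgeR adjusted p = 0.000346). TOP2A was at 237, 222 and 238 CPM, against 213, 217 and 226 CPM in DMSO, so the groups overlapped. Its change of 0.09 had an adjusted p of 0.0224, which rose to between 0.071 and 0.112 without DMSO replicate A or B or abiraterone replicate A or C. DMSO spread more than any other group of the panel, with a summed CPM of the 58 genes of 5100 in replicate A, 5383 in replicate B and 5600 in replicate C, against 4879 to 4966 with abiraterone. Without DMSO replicate A, 42 of the 58 genes were called with abiraterone, and 30 without DMSO replicate B. No share of all genes is given for these fits.

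With enzalutamide, 9 genes were lower and 14 higher than in DMSO, against 26.3% of all genes lower and 27% higher. The median was 0.03, and −0.01 without DMSO replicate A. With scaling by total counts, 9 were lower and 26 higher, and of all 18625 genes 9984 were called there, 4081 of them lower. TOP2A rose most, at 283, 273 and 281 CPM against 213 to 226 CPM in DMSO (0.35 ± 0.03, edgeR adjusted p = 1.32e-11). ESPL1 (0.31 ± 0.07), CDK1 (0.27 ± 0.04, at 339, 363 and 346 CPM) and KIF23 (0.27 ± 0.05), a centralspindlin kinesin, rose as well. The checkpoint kinase TTK (−0.30 ± 0.05), AURKA (−0.25 ± 0.05) and HMMR (−0.24 ± 0.04) fell. PLK1, at 79.8, 86.7 and 84.3 CPM, overlapped DMSO and did not pass the test.

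Under abiraterone plus olaparib, 57 genes were lower than in DMSO and 1 was higher (median −0.69), against 31.1% of all genes lower and 31.1% higher. PLK1 was at 40.1, 39.7 and 44.9 CPM, 2.14-fold lower than in DMSO (−1.09 ± 0.05), and KIF14 (−1.07) and KIF18A (−1.01) were next. CDK1 was at 317, 307 and 302 CPM and was called higher (0.10, edgeR adjusted p = 0.0303), although its range overlapped that of DMSO and the call was lost without DMSO replicate A or B or combination replicate A or B (adjusted p = 0.059 to 0.205). Under enzalutamide plus talazoparib, 54 genes were lower and 1 higher (median −0.45), against 31.3% of all genes lower and 31.2% higher. CENPE (−0.82 ± 0.05), KIF14 (−0.81 ± 0.05) and PLK1 (−0.78 ± 0.05, at 56.1, 47.9 and 50.6 CPM) changed most. CDK1 was higher in all 3 libraries, at 340, 349 and 330 CPM (0.23 ± 0.04), and SPC24 (−0.01), TOP2A (0.04) and KIF18B (−0.15) did not pass the test. KIF18B passed it without DMSO replicate A (edgeR adjusted p = 0.0169) and TOP2A with scaling by total counts (0.0319, higher).

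Adding a PARPi to abiraterone or enzalutamide lowered all of the 58 genes but CDK1. Abiraterone plus olaparib against abiraterone gave 57 lower genes and none higher (median −0.54), against 14.7% of all genes lower and 14.4% higher, with PLK1 (−0.87 ± 0.05), KIF20A (−0.84 ± 0.04) and KIF14 (−0.82 ± 0.06) at the low end. Enzalutamide plus talazoparib against enzalutamide also gave 57 lower and none higher (median −0.46), against 17.9% of all genes lower and 16.5% higher, with KIF14 (−0.81 ± 0.05), CENPE (−0.72 ± 0.05) and PLK1 (−0.70 ± 0.05) at the low end. CDK1 changed by −0.08 (edgeR adjusted p = 0.125; 0.0373 with scaling by total counts and 0.015 with only the groups compared) and by −0.04 (adjusted p = 0.43).

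Whether a combination departed from the sum of its drugs on the log2 scale was tested with an interaction term. For abiraterone and olaparib, 8 of the 58 genes departed, all toward a lower value, against 8.08% of all genes lower and 4.74% higher. These were PLK1 (−0.47 ± 0.07, edgeR adjusted p = 9.71e-05), KIF20A (−0.36 ± 0.06, adjusted p = 7.5e-05), CDC20 (−0.29), CDC25B (−0.26), AURKA (−0.25), CDCA8 (−0.21), CCNB1 (−0.18) and FOXM1 (−0.17), named after their values were seen. In PLK1, abiraterone alone left 77.9, 72.5 and 77.3 CPM and olaparib alone 64.8 to 69.1 CPM, while the combination left 39.7 to 44.9 CPM. The departures of PLK1, KIF20A, CDC25B and CCNB1 passed the test with each library left out in turn. That of CDC20 was lost without olaparib replicate C (adjusted p = 0.0628) or combination replicate A (0.0621), and that of AURKA without replicate A of abiraterone, olaparib or the combination (0.0687 to 0.0812). FOXM1 lost it without olaparib replicate A or C or combination replicate A or B (0.0556 to 0.0719), and CDCA8 without DMSO replicate A, abiraterone replicate A or C, olaparib replicate B or C or combination replicate A (0.0557 to 0.0981). Across libraries left out, 4 to 12 of the 58 genes departed, with 5 without olaparib replicate C and 4 without combination replicate A. For enzalutamide and talazoparib, 3 genes departed, against 7.28% of all genes lower and 5.32% higher. DLGAP5, a spindle assembly factor, and KIF20A were lower than the sum (both −0.19), and KIF18B was higher (0.36, edgeR adjusted p = 0.0498). Leaving out single libraries ended each of these calls. That of DLGAP5 was lost without talazoparib replicate A or C or combination replicate A or C (adjusted p = 0.0713 to 0.141), and that of KIF20A without DMSO replicate A or B, enzalutamide replicate B or C, talazoparib replicate A or C or combination replicate B or C (0.0609 to 0.169) and with scaling by total counts (0.0705). The call of KIF18B was lost without DMSO replicate C, any enzalutamide library, or replicate B or C of talazoparib or of the combination (0.0734 to 0.163), and with only the groups compared (0.125). CENPF (0.18 ± 0.06, edgeR adjusted p = 0.069) did not pass, but was called higher than the sum in 8 of 19 alternatives, among them DESeq2 (adjusted p = 0.00964), scaling by total counts (0.0309) and no filter on low counts (0.00455). Only 1 gene departed without enzalutamide replicate C or without combination replicate B or C.

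**Figure D4:**
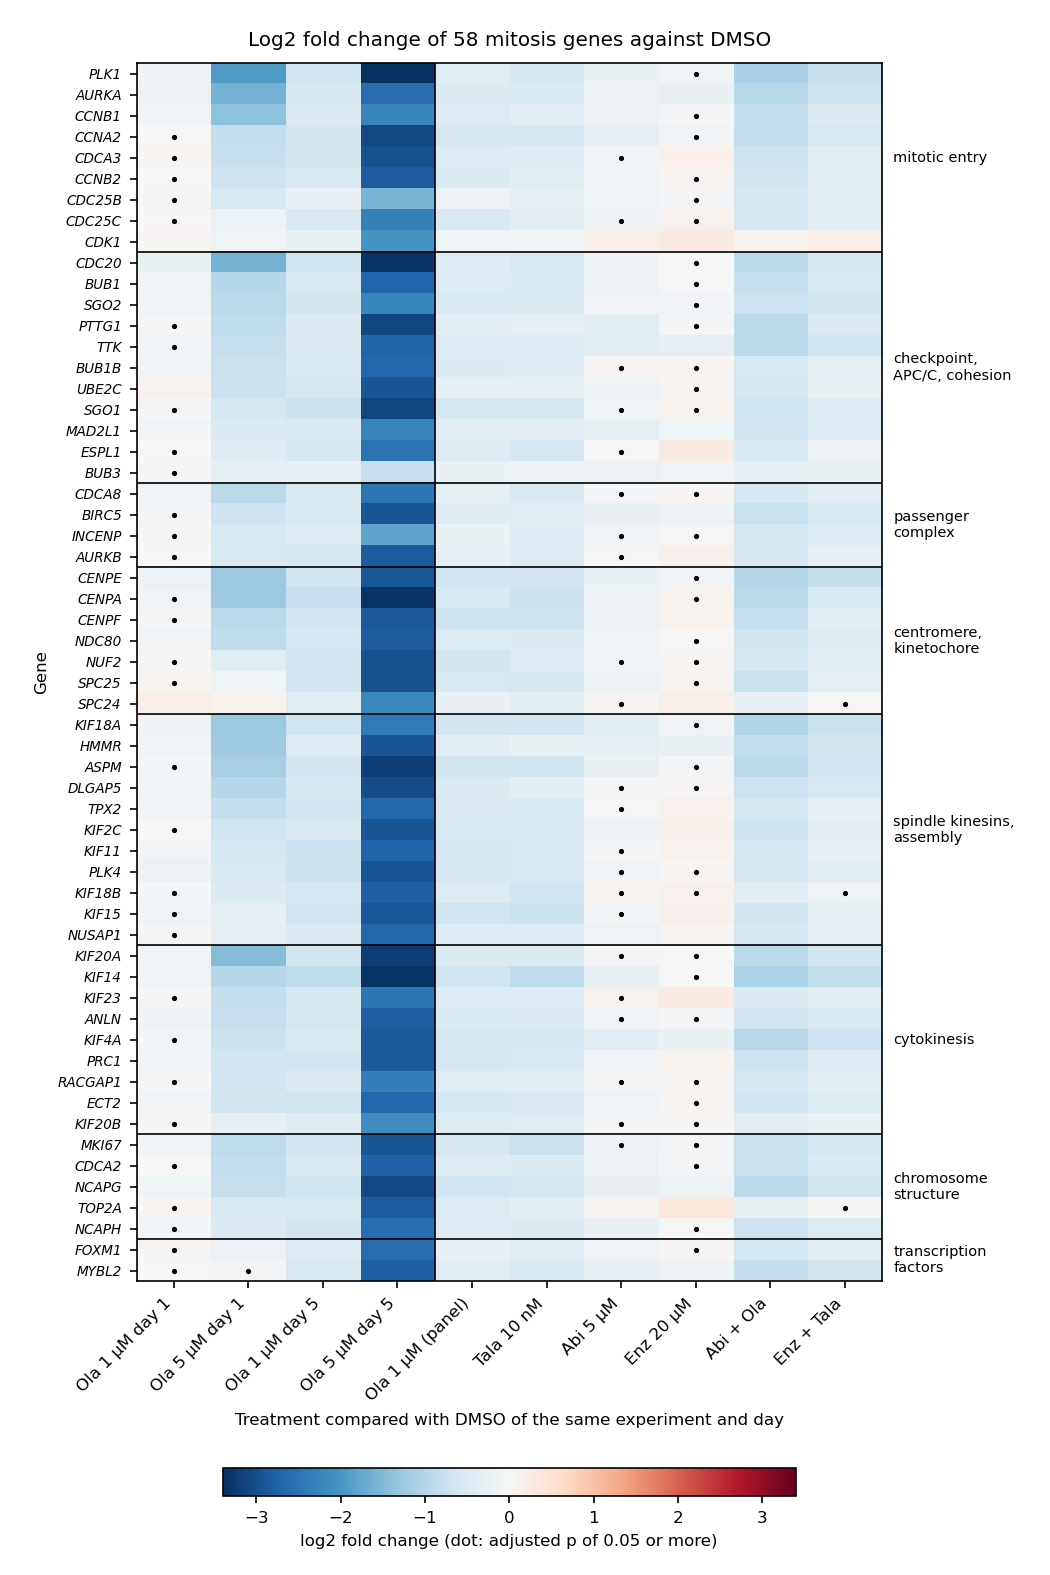
Log2 fold change against DMSO of the same experiment and day (color; blue lower, red higher) for the 58 genes, in rows grouped by role and ordered by the change at 5 µM on day 1, over 10 treatments in columns; dots mark changes that did not pass the threshold. All 58 genes are lower in each 5-day column of olaparib or talazoparib alone, and CDK1 is called higher in the abiraterone and enzalutamide columns and both combination columns.

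Other genes of the same pathways, on lists written from general knowledge, differed from list to list on day 1 at 5 µM, where 23.4% of all genes were lower and 21.6% higher. Of 28 further kinetochore and centromere genes, 15 were lower and 4 higher (median −0.10), with HJURP, the chaperone of CENP-A, at −0.79, the constitutive centromere gene CENPP at 0.64 and the kinetochore scaffold KNL1 at −0.48. Of 34 further G2 and mitosis genes, 32 were lower and none higher (median −0.47), with PSRC1 (−1.42), BORA (−1.11), the cofactor through which Aurora A activates PLK1, and FAM83D (−1.07) at the low end. Of 18 condensin and cohesin subunits, 13 were lower and 1 higher (median −0.16), including SMC4 (−0.58), NCAPD2 (−0.55) and RAD21 (−0.49). APC/C subunits moved both ways, with 7 of 15 lower and 3 higher (median −0.03), CDC27 changing most (−0.46). Of 28 G1/S and replication genes, 13 were lower and 5 higher (median −0.05), MCM6 at −0.46, CDC25A at −0.27 and PCNA, also a p53 target, at 0.44.

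After 5 days at 5 µM, when 33.9% of all genes were lower and 34.4% higher, more genes of these lists were lower. All 28 G1/S and replication genes were lower (median −2.02), as were all 34 further G2 and mitosis genes (median −2.33), 27 of the 28 further kinetochore and centromere genes (median −1.70) and 15 of 18 condensin and cohesin subunits (median −1.12). The APC/C subunits had 11 lower and 1 higher (median −0.21). On the list of the DREAM and MuvB complex with p21, 5 of 12 genes were lower and 4 higher on day 1 at 5 µM (median −0.08), against the same 23.4% and 21.6% of all genes. CDKN1A rose by 3.71 ± 0.03 on the log2 scale there, E2F5 changed by −0.64 and TFDP2 by 0.33. CDKN1A was also called higher in each other comparison with DMSO of the same day. It rose by 1.87 at 1 µM on day 1, where the 58 genes had a median of −0.08, by 2.46 and 4.15 at 1 and 5 µM on day 5, and by 2.18 with olaparib and 1.98 with talazoparib in the panel. Its change was 0.82 with abiraterone, 0.18 with enzalutamide, 2.70 in the combination of abiraterone with olaparib and 2.31 in that of enzalutamide with talazoparib. The part of CDKN1A in the fall of the 58 genes was not tested.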

How the data were processed

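RNA-seq libraries were stranded and poly(A)-selected. Per the submitters' processing notes, Trim Galore, STAR and Salmon were used with GRCh38. The authors deposited Salmon's estimated counts of each gene, unnormalized and as integers, which were used unchanged, with members matched by Ensembl gene ID (GENCODE v44, IDs with identical versions for all 58). Salmon assigns reads shared by gene copies by estimation, so counts of genes with copies are uncertain. How Salmon used strand is not given in the sources used here.

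With edgeR 4.0.16 (R 4.3.3), each experiment was fitted once with all its groups: TMM scaling, filterByExpr by group, robust quasi-likelihood tests, and Benjamini-Hochberg adjustment over all genes tested (18502 in the time course, 18625 in the panel). Calls are at an adjusted p under 0.05. Errors are SE for fold changes and SD (n = 3) for levels. The fit was tested on simulated data. Alternatives were RLE and total count scaling, other low-count filters, a fold-change minimum, a replicate block, DESeq2 1.42.0, only the groups compared, and leaving out each library. No share of all genes is given for fits with a library left out. Members and lists were chosen with earlier results of these data known. Named genes were a set of 16, the extremes of each role at 5 µM on day 1, the 3 largest and 3 smallest changes per comparison with DMSO, up to 5 called against the majority, and the 3 largest of each other list. Other members named were chosen after their values were seen. Promoters came from RefSeq (GRCh38.p14).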

Additional observations from a re-analysis of the deposited data

Results flagged for a closer look

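The olaparib effect differed between day 5 and day 1 in 58 of the 58 genes at 1 µM and in 58 of the 58 genes at 5 µM, by a test of the difference itself (edgeR adjusted p under 0.05), each toward a lower value on day 5. The share called lower among all genes was 14.2% at 1 µM and 27.7% at 5 µM. For abiraterone and olaparib the interaction term was called in 8 of the 58 genes, all lower than the sum of the drugs, with PLK1 at −0.47 and KIF20A at −0.36 on the log2 scale, against 8.08% of all genes lower and 4.74% higher. That count was 4 without combination replicate A and 5 without olaparib replicate C. For enzalutamide and talazoparib the term was called in 3 genes, lower for KIF20A and DLGAP5 and higher for KIF18B, against 7.28% of all genes lower and 5.32% higher, and each of these 3 calls was lost when single libraries were left out. Single libraries within groups of 3 were not tested as outliers.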

How the results depend on the processing

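All 58 genes stayed lower in each alternative without a fold-change minimum for the 5-day effects of 1 and 5 µM in the time course and for both day by treatment terms. A minimum absolute log2 fold change of 1 left 57 of the 58 genes called for 5 µM on day 5, all lower. Of all genes it left 3038, 1409 of them lower. For 5 against 1 µM on day 5 it left 57, all lower (1235 of all genes, 737 of them lower). For the 5 µM day by treatment term it left 55, all lower (2243 of all genes, 1398 of them lower). It left 10 for 5 µM on day 1, all lower (659 of all genes, 78 of them lower). For 5 against 1 µM on day 1 it left 10, all lower (287 of all genes, 42 of them lower). For abiraterone plus olaparib against DMSO it left 3, all lower (2692 of all genes, 789 of them lower). It left 0 for 1 µM on either day, its day by treatment term, DMSO on day 5 against day 1, abiraterone, enzalutamide, olaparib and talazoparib. The same held for enzalutamide plus talazoparib, each combination against abiraterone or enzalutamide alone and both interactions. Total count scaling gave 35 calls for enzalutamide (9984 of all genes). Using no filter on low counts gave 5 for the enzalutamide and talazoparib interaction (2335 of all genes). With single libraries left out, the calls ranged from 4 to 12 for the abiraterone and olaparib interaction and from 1 to 4 for that of enzalutamide and talazoparib.

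Replicate numbers did not pair the samples: deviations of same-numbered libraries correlated between −0.133 and 0.116 in the time course and between −0.069 and 0.064 in the panel. A replicate block gave 25 called genes at 1 µM on day 1 (2869 of all genes) and 37 for abiraterone (9808 of all genes). It gave 2 for the enzalutamide and talazoparib interaction (2244 of all genes), where KIF18B was lost (edgeR adjusted p = 0.0722). The cause of these shifts was not tested. The lowest count of any of the 58 genes in any library was 55, so no level rested on a count near 0.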

Other observations

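The genes of the abiraterone and olaparib interaction were set beside those of the early 5 µM response, which come from separate experiments with no library in common. Of the 8 genes with an interaction, 5 (AURKA, CCNB1, CDC20, KIF20A and PLK1) were among the 10 whose log2 fold change was −1 or less at 5 µM on day 1, which is 5 of 8 and 5 of 10 of the respective groups. The 10 genes had a median interaction of −0.18, and the other 48 genes had −0.04. Without combination replicate A, 4 genes had an interaction (PLK1, KIF20A, CDC25B and CCNB1), 3 of them among the 10, and with single libraries left out the median interaction of the 58 genes ran from −0.10 to −0.02. For enzalutamide and talazoparib the medians were −0.04 and 0.05. With all libraries, 8.08% of all genes tested had a lower value than the sum under abiraterone plus olaparib. No share of all genes is given for the fit without combination replicate A, so the count of 4 has none to be set against. Both groupings were chosen after the values were seen, and the overlap was not tested.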
